A study of Mus musculus with 6 samples.

Results

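The PGC-1 coactivators and their partners are 9 genes: the coactivators Ppargc1a and Ppargc1b, the partner or regulator genes Esrra, Nrf1, Tfam, Sirt1 and Foxo1, and the fasting target genes Pck1 and G6pc. Each was read by the brightest probe set that names the gene alone, and each of the 9 had exactly 1 such probe set, out of 14860 genes named in this way among 23332 probe sets. Ppargc1a was chosen by its higher values in DeltaHepKlf6 livers on these same arrays, so its difference is given as a description and no test is given for it. The partners and targets were listed for their known ties to Ppargc1a. The question was whether they follow it from liver to liver.

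The livers came from 6 mice on a high-fat diet for 8 weeks, with 1 Affymetrix exon array per mouse. In the 3 DeltaHepKlf6 mice, Klf6, which encodes a Kruppel-like zinc finger transcription factor, had been knocked down in hepatocytes. The 3 Control mice were littermates labelled wild type. Per the labels, the DeltaHepKlf6 mice had improved glucose tolerance and less steatosis, and the Control mice had glucose intolerance and marked steatosis. The age and sex of the mice, and the driver that confines the knockdown to hepatocytes, are not given in the sources used here. Values were read as log2 from their range, with RMA named in the submitters' processing notes but not its role. On that reading a difference of 1 is a doubling, and levels of different genes cannot be set against each other. Whole liver was measured, so fewer cells of a type and less RNA per cell cannot be told apart.

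PGC-1 alpha, the product of Ppargc1a, is a transcriptional coactivator: it binds no DNA itself but docks on transcription factors and recruits the machinery that starts transcription. In liver it is induced in fasting through glucagon and cyclic AMP, and it then works with FOXO1 and HNF4A on the gluconeogenic genes Pck1 and G6pc. With the estrogen-related receptor ERR alpha and nuclear respiratory factor 1 it drives mitochondrial genes, among them Tfam, and SIRT1 switches its activity by removing acetyl groups.

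RefSeq promoter sequences are shown for Ppargc1a, for both fasting targets and for Nrf1, the partner whose groups lay apart. A window of 300 bases, 250 before and 50 after the annotated start, was searched for 8 of the 9 members, matched by gene symbol. Ppargc1b was not searched. The capitals mark the letters CGTCA, the core of the cyclic AMP response element, in Ppargc1a and Pck1. In Nrf1 they mark the Kruppel-like factor letters CCNCNCCC. Both strands were searched. CGTCA was searched in G6pc as well, but that window does not hold it and so has no capitals.
Ppargc1a, GRCm38.p6 chr5:51567676-51567975, minus strand: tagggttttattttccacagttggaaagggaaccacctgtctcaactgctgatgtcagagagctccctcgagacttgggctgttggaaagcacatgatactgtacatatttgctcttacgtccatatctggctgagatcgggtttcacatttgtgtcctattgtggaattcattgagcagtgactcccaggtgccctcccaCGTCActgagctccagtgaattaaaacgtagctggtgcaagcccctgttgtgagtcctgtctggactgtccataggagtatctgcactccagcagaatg
Pck1, GRCm38.p6 chr2:173152823-173153122, plus strand: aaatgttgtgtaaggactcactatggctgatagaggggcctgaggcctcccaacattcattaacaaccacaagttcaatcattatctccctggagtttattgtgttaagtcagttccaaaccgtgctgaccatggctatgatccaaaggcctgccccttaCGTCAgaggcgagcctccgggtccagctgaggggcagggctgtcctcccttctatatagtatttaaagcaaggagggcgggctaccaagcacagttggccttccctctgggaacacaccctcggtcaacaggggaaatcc
G6pc, GRCm38.p6 chr11:101367466-101367765, plus strand: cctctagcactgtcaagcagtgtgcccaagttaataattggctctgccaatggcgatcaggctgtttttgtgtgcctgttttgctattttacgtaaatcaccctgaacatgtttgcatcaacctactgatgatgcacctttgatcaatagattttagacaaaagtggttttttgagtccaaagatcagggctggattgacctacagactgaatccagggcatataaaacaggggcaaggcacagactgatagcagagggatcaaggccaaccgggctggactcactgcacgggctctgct
Nrf1, GRCm38.p6 chr6:30047738-30048037, plus strand: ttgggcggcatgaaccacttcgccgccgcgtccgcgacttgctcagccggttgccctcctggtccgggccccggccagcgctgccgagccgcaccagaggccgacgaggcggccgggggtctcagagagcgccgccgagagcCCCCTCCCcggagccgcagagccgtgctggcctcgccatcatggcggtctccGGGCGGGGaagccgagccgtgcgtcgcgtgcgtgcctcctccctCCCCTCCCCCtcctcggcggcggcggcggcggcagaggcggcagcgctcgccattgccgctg

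The Ppargc1a window lies inside the RefSeq span of the gene, 51454249 to 52115853 on chromosome 5. Any other start of Ppargc1a in that span was not searched. The core CGTCA, a motif added after the windows had been seen, began 49 bases before the annotated start used for Ppargc1a. CGTCA began 90 bases before the start of Pck1, and on the other strand of the Sirt1 window it lay 39 bases before the start. It was in 20.8% of all 32851 windows of this length, and the G6pc window does not hold these letters. The Kruppel-like letters stood at 4 positions in the first Nrf1 window, of which those beginning 12 and 10 bases before the start overlap. They stood at 5 positions in Sirt1, 3 in Esrra, 3 in Foxo1 and 2 in Tfam. Overlaps also occur in Sirt1, at 63, 61 and 56 bases before the start, and in Esrra, at 50 and 48 bases. The windows of Ppargc1a, Pck1 and G6pc do not hold the Kruppel-like letters, and 49.5% of all windows do. Of the other letters searched, GCGCNTGCG of NRF1 was in Esrra, against 6.31% of all windows. The full response element TGACGTCA, the FOXO letters GTAAACA and the letters AAGGTCA of the estrogen-related receptors were in none of the members' windows searched. Of all windows, 1.79%, 3.65% and 4.72% held them. The first Nrf1 window was 77% G and C, against 48.7% in Ppargc1a, 52% in Pck1, 46.7% in G6pc and a median of 52.7% over all windows. These matches describe letters only and say nothing of binding.

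The Klf6 probe set read 5.93, 5.43 and 5.45 in DeltaHepKlf6 livers 1, 2 and 3, against 6.80, 6.09 and 5.88 in Control livers 1, 2 and 3. The groups overlapped, since DeltaHepKlf6 liver 1 lay above Control liver 3. The difference was -0.65 ± 0.28 (SE), with a limma unadjusted p of 0.0587 and a Benjamini-Hochberg adjusted p of 0.998. With each liver left out in turn the Klf6 difference ran from -0.84 without Control liver 3 to -0.38 without Control liver 1. Array medians lay between 5.49 and 5.55, and the Pearson correlation between any pair of arrays, taken over probe sets, was 0.953 to 0.974. The hepatocyte markers Alb and Ttr were at 12.83 or above on every array. Of the 4 hepatocyte markers measured, 2 were higher and 2 lower in DeltaHepKlf6, with differences from -0.25 for Hnf4a to 0.05 for Ttr. Of the marker lists, exocrine pancreas genes averaged 11.1 in Control liver 3, against 4.72 to 5.06 in the other 5 livers. Macrophage and Kupffer cell markers were lower in DeltaHepKlf6 livers in 9 of 9 genes, where 62.1% of all genes were lower. Their mean levels were 7.05 to 7.68 in DeltaHepKlf6 livers and 7.69 to 8.19 in Control livers. By limma 0 of the 9 had an adjusted and 1 an unadjusted p under 0.05. The groups lay apart in 4 of the 9, where 3.9% of all genes lay apart on the lower side. DeltaHepKlf6 liver 3, with the lowest marker mean, also had the lowest mean over all genes, 5.92. The interquartile range of the array values was 3.05, 3.19 and 2.76 in DeltaHepKlf6 livers 1, 2 and 3, and 3.29, 3.05 and 2.96 in Control livers 1, 2 and 3.

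Ppargc1a was higher in every DeltaHepKlf6 liver than in any Control liver. It read 9.39, 8.72 and 9.50 in DeltaHepKlf6 livers 1, 2 and 3, against 8.35, 8.64 and 8.39 in Control livers 1, 2 and 3. DeltaHepKlf6 livers 1 and 3 stood well above the rest, whereas DeltaHepKlf6 liver 2 lay only 0.08 above Control liver 2, the highest of its group. The mean was 9.20 ± 0.42 in DeltaHepKlf6 and 8.46 ± 0.16 in Control (SD, n = 3 each), or 0.74 ± 0.24 (SE) higher on the log2 scale and 1.67-fold. Against the Control mean, livers 1 and 3 were 1.91-fold and 2.06-fold higher and liver 2 was 1.20-fold higher. Without DeltaHepKlf6 liver 2 the difference was 0.99, and without DeltaHepKlf6 liver 3 it was 0.60. Without Control liver 3, the liver with pancreas transcripts, it was 0.71. With the interquartile range of each array as a covariate, a setting added after the data were seen, it was 0.63. The macrophage markers also were lowest in DeltaHepKlf6 liver 3, and their part in the Ppargc1a difference was not tested. Markers of skeletal muscle and of brown and white fat, tissues that also use Ppargc1a, averaged 5.50 to 5.70 and 4.34 to 4.56 in DeltaHepKlf6 livers, against 5.64 to 5.74 and 4.39 to 4.50 in Control livers.

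**Figure D1:**
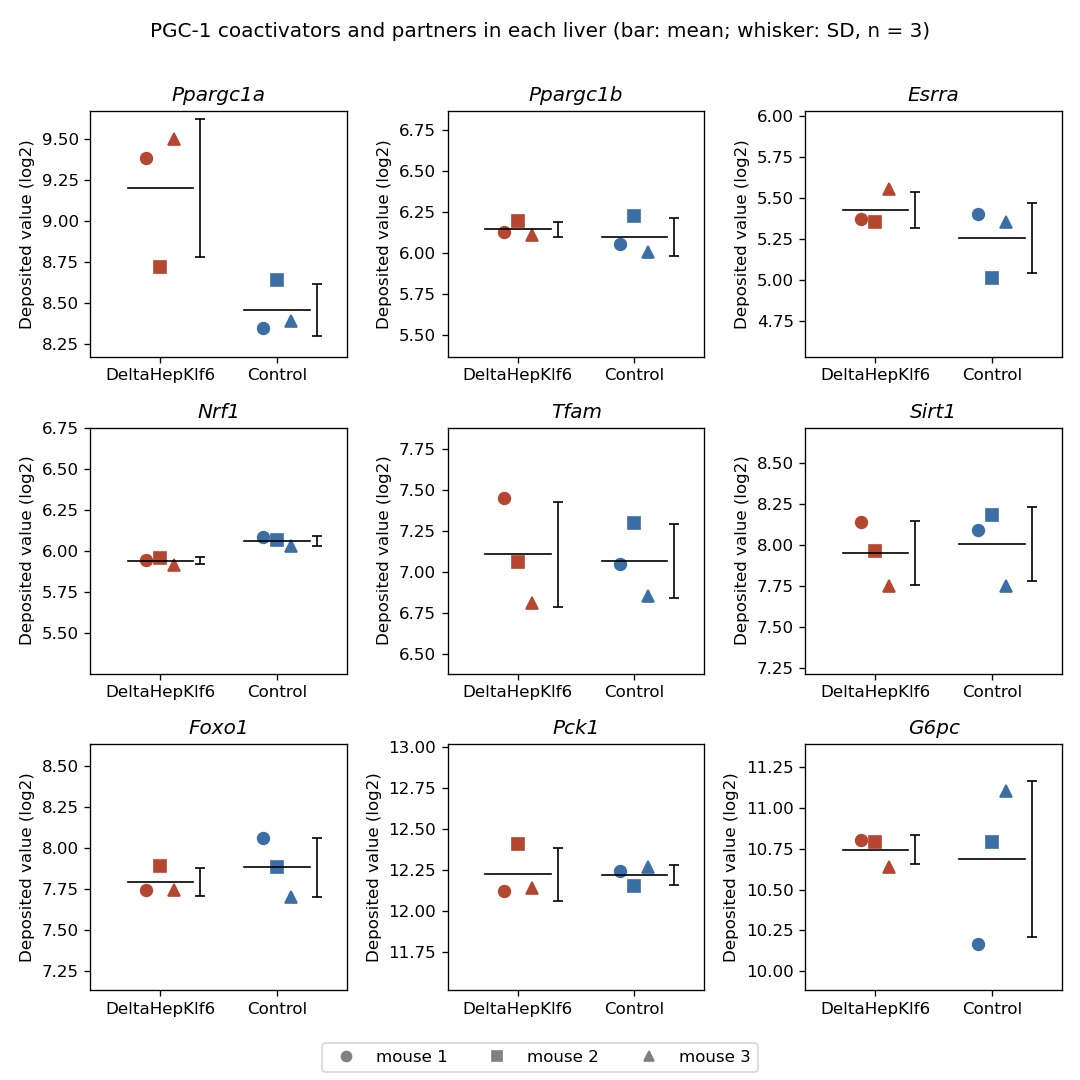
Deposited values (log2) of the 9 members in each liver, DeltaHepKlf6 on the left and Control on the right, with the symbol giving the mouse, the bar the mean and the whisker the SD (n = 3), all panels spanning the same height. The groups lie apart in Ppargc1a, with DeltaHepKlf6 higher, and narrowly in Nrf1, with DeltaHepKlf6 lower, and they overlap in the other 7 genes.

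None of the 8 other members passed limma's test. Their log2 differences ran from -0.12 to 0.17 with a median of 0.02, 5 higher and 3 lower, against a median of -0.05 over all 14860 genes, of which 62.1% were lower. Of the 8, 0 had an adjusted p under 0.05, where limma called 0 of all 23332 probe sets, 0%, and 0 had an unadjusted p under 0.05, where 249 of 14860 genes or 1.68% had. Unadjusted p-values of the 8 lay between 0.327 and 0.982, and the adjusted p was 0.998 for each. The groups did not overlap in 2 of the 9 members, against 6.31% of all genes. Of these 2, Ppargc1a was on the higher side, where 2.42% of all genes stand, and Nrf1 on the lower side, where 3.9% stand. Since Ppargc1a was picked on this contrast, its place in the count says nothing further.

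**Figure D2:**
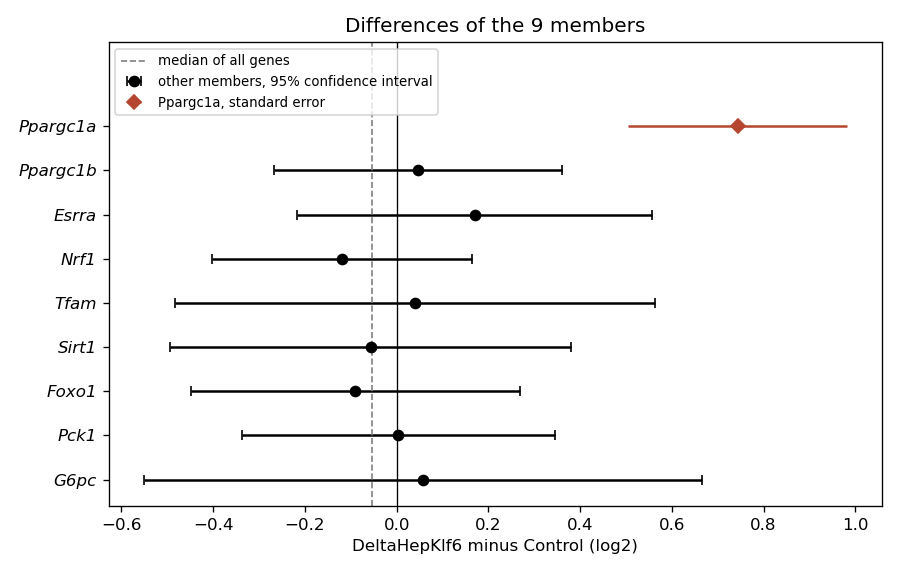
DeltaHepKlf6 minus Control difference (log2) of each member, with 95% confidence intervals from limma for 8 genes and the standard error for Ppargc1a, which was chosen on this difference. The dashed line marks the median of all genes at -0.05, and all 8 intervals include 0.

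Ppargc1b encodes PGC-1 beta, the close relative of PGC-1 alpha with a role in mitochondrial and lipid synthesis genes. It read 6.13, 6.20 and 6.11 in DeltaHepKlf6 livers 1, 2 and 3, against 6.06, 6.23 and 6.01 in Control livers 1, 2 and 3. The groups overlapped, with Control liver 2 highest and Control liver 3 lowest. The difference was 0.05 with a 95% confidence interval of -0.27 to 0.36, the upper bound being 1.28-fold on the fold scale. With each liver left out in turn it ran from 0.0017 without Control liver 3 to 0.11 without Control liver 2.

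Esrra encodes ERR alpha, the nuclear receptor through which PGC-1 alpha reaches many mitochondrial genes, and PGC-1 alpha raises Esrra itself. It read 5.37, 5.35 and 5.55 in DeltaHepKlf6 livers 1, 2 and 3, against 5.40, 5.01 and 5.35 in Control livers 1, 2 and 3. DeltaHepKlf6 liver 3 was highest and Control liver 2 lowest, and the rest lay within a narrow band. The difference of 0.17, the largest positive one among the 8, had a 95% confidence interval of -0.22 to 0.56 and was 0.05 without Control liver 2. Esrra was also a dim probe set, below the median of all probe sets in its mean over the arrays.

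Nrf1, for nuclear respiratory factor 1, activates respiratory chain genes and Tfam. It read 5.95, 5.96 and 5.92 in DeltaHepKlf6 livers 1, 2 and 3, against 6.09, 6.07 and 6.03 in Control livers 1, 2 and 3. All DeltaHepKlf6 values lay below all Control values, by 0.07 at the closest, and the spread within each group was small, with means of 5.94 ± 0.02 in DeltaHepKlf6 and 6.06 ± 0.03 in Control (SD, n = 3 each). The difference of -0.12 had a 95% confidence interval of -0.40 to 0.16, since limma draws the variance of a gene toward that of the other probe sets. Limma's unadjusted p was 0.343 and its adjusted p 0.998, and the median of all genes lay at -0.05 on the same scale.

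Tfam encodes the factor that packs mitochondrial DNA and starts its transcription. It read 7.45, 7.06 and 6.81 in DeltaHepKlf6 livers 1, 2 and 3, against 7.05, 7.30 and 6.85 in Control livers 1, 2 and 3. The groups overlapped widely, with the highest and the lowest value both in DeltaHepKlf6. The difference was 0.04 with a 95% confidence interval of -0.48 to 0.56, and it ran from -0.13 without DeltaHepKlf6 liver 1 to 0.19 without DeltaHepKlf6 liver 3.

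Sirt1 encodes the NAD-dependent deacetylase that acts on PGC-1 alpha. It read 8.14, 7.96 and 7.75 in DeltaHepKlf6 livers 1, 2 and 3, against 8.09, 8.18 and 7.75 in Control livers 1, 2 and 3. Liver 3 of each group shared the lowest value, and the groups covered nearly the same range. The difference was -0.06 with a 95% confidence interval of -0.49 to 0.38. Foxo1 encodes the insulin-restrained forkhead factor that works with PGC-1 alpha on gluconeogenic promoters. It read 7.74, 7.89 and 7.74 in DeltaHepKlf6 livers 1, 2 and 3, against 8.06, 7.88 and 7.70 in Control livers 1, 2 and 3. The DeltaHepKlf6 values lay inside the Control range, and the difference was -0.09 with a 95% confidence interval of -0.45 to 0.27. It ran from -0.18 without Control liver 3 to no difference without Control liver 1.

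Pck1 encodes the cytosolic phosphoenolpyruvate carboxykinase, an early step of gluconeogenesis and a classical fasting target of PGC-1 alpha. It read 12.12, 12.41 and 12.14 in DeltaHepKlf6 livers 1, 2 and 3, against 12.24, 12.15 and 12.27 in Control livers 1, 2 and 3. The DeltaHepKlf6 livers held the highest value, in liver 2, and both lowest values, in livers 1 and 3. The means were 12.22 ± 0.16 in DeltaHepKlf6 and 12.22 ± 0.06 in Control (SD, n = 3 each), a difference of 0.003 with a 95% confidence interval of -0.34 to 0.34 (limma, unadjusted p = 0.982, adjusted p = 0.998). On the fold scale the interval runs from 0.791 to 1.27. Without DeltaHepKlf6 liver 2 the difference was -0.09.

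G6pc encodes the catalytic subunit of glucose-6-phosphatase, the last step of glucose release. It read 10.80, 10.79 and 10.64 in DeltaHepKlf6 livers 1, 2 and 3, against 10.17, 10.79 and 11.10 in Control livers 1, 2 and 3. The DeltaHepKlf6 livers were close together, while the Control livers held both the lowest and the highest value. The means were 10.74 ± 0.09 in DeltaHepKlf6 and 10.69 ± 0.47 in Control (SD, n = 3 each), a difference of 0.06 with a 95% confidence interval of -0.55 to 0.66. It was -0.20 without Control liver 1 and 0.26 without Control liver 3.

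**Figure D3:**
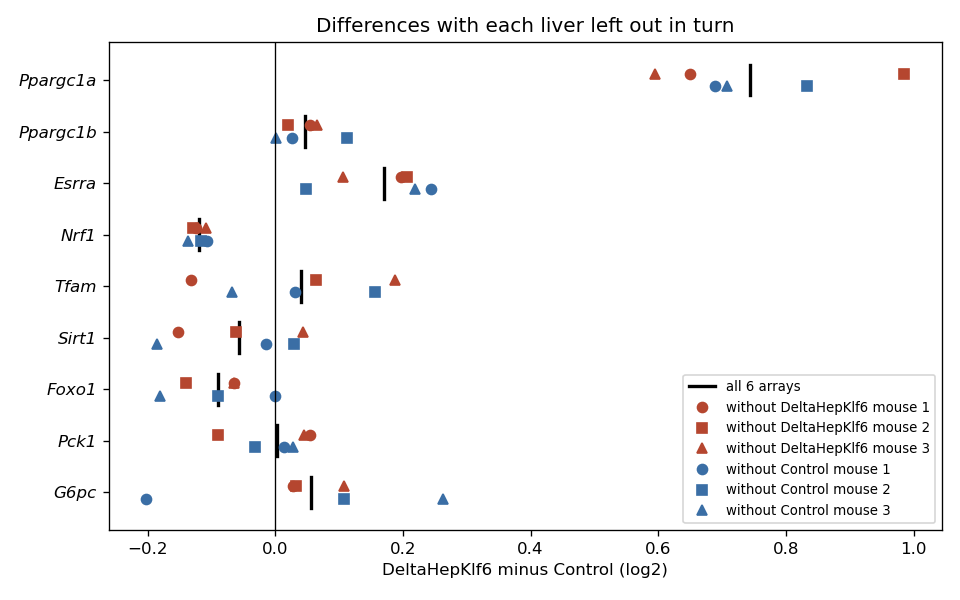
DeltaHepKlf6 minus Control difference (log2) of each member with all 6 arrays (black bar) and with each liver left out in turn (symbols). Ppargc1a stays between 0.60 and 0.99 and Nrf1 between -0.14 and -0.11, while Tfam, Sirt1, Pck1 and G6pc lie on either side of 0.

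Because the groups lie apart in Ppargc1a, the 6 arrays form 2 clusters of 3 and no correlation with the partners is given. Instead the order of livers was compared within each group, over 3 pairs of DeltaHepKlf6 livers and 3 pairs of Control livers. Ppargc1a ran from liver 3 through liver 1 to liver 2 in DeltaHepKlf6, high to low, and from liver 2 through liver 3 to liver 1 in Control. Pck1 had the same order as Ppargc1a in 2 of the 6 pairs, 1 in each group, and its highest DeltaHepKlf6 value came from the liver with the lowest Ppargc1a of that group. G6pc, Tfam and Sirt1 each had the order of Ppargc1a in 3 of 6 pairs, 1 in DeltaHepKlf6 and 2 in Control. Esrra followed Ppargc1a in 3 of 3 DeltaHepKlf6 pairs and in 0 of 3 Control pairs. Ppargc1b matched in 2 of 6, and Nrf1 and Foxo1 in 1 of 6 each. Foxo1 read 7.74 in both DeltaHepKlf6 livers 1 and 3, and a tie was counted as no match. In all, the 8 members had the order of Ppargc1a in 18 of 48 comparisons, with a median of 2.5 of 6 per gene, against a median of 2 of 6 over the 14859 other genes. These counts are a description of 6 livers and carry no test.

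**Figure D4:**
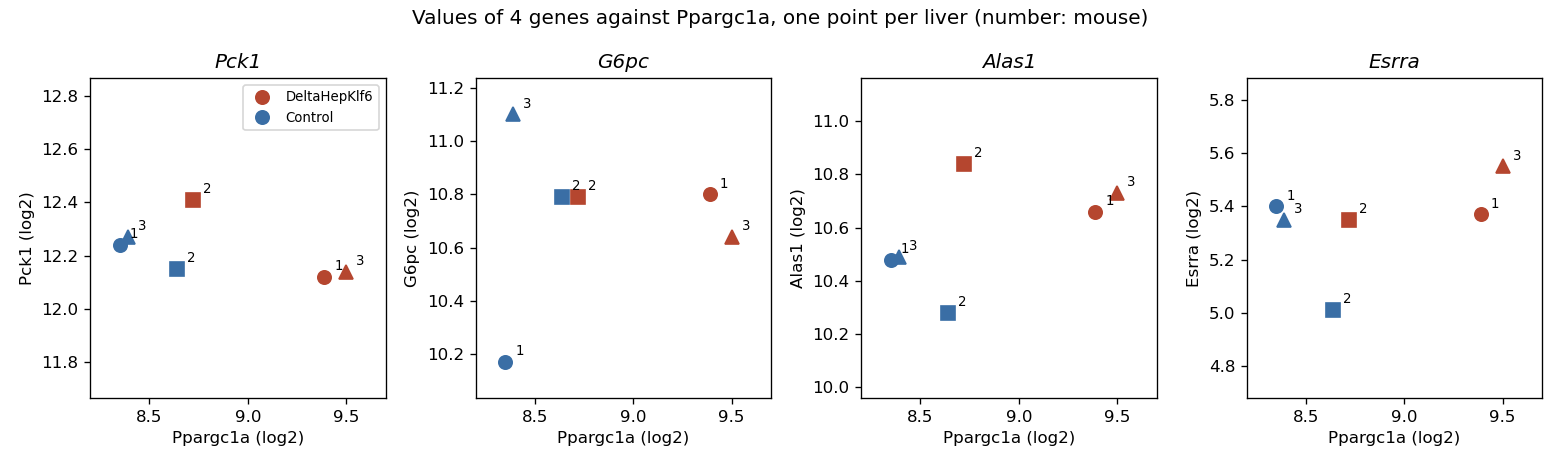
Values of Pck1, G6pc, Alas1 and Esrra (vertical axes, log2, all of the same height) against Ppargc1a (horizontal axes, log2), 1 point per liver, numbered by mouse, DeltaHepKlf6 in red and Control in blue. Pck1 is highest in DeltaHepKlf6 liver 2, whose Ppargc1a of 8.72 is the lowest of its group, and Esrra has the order of Ppargc1a among the DeltaHepKlf6 livers and the opposite order among the Control livers.

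Among the 7 members whose groups overlapped, 21 pairs were compared over the 6 livers. Tfam and Sirt1 varied together, with a Pearson r of 0.90 and a Spearman rho of 0.87, and both were highest in DeltaHepKlf6 liver 1 and Control liver 2 and lowest in liver 3 of each group. The two-sided exact permutation p was 0.0222 for r and 0.0333 for rho, and after Benjamini-Hochberg adjustment over the 21 pairs 0.467 and 0.700, so the relation did not pass. Without Control liver 2 and DeltaHepKlf6 liver 1, the livers farthest from the median of Tfam, r was 0.93. None of the other pairs had an exact permutation p for r under 0.05. Pck1 and G6pc, both fasting targets, had an r of 0.09 (rho 0.06, exact permutation p = 1.0 and 0.939, adjusted over 21 pairs 1.0 and 0.972), or 0.08 without DeltaHepKlf6 livers 1 and 2.

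The 5 genes whose probe sets were most like Ppargc1a over the 6 arrays, among 7428 genes brighter than the median, were Hsf2, with a Pearson r of 0.97, Cbwd1 with 0.96, and Luc7l3, Ptbp3 and 3830406C13Rik with 0.95, 0.95 and 0.94. Hsf2 encodes a heat shock transcription factor, Luc7l3 a splicing factor and Ptbp3 a polypyrimidine tract binding protein. Hsf2 read 8.41, 8.03 and 8.46 in DeltaHepKlf6 livers 1, 2 and 3, against 7.93, 8.16 and 7.96 in Control livers 1, 2 and 3. It followed Ppargc1a in the low DeltaHepKlf6 liver 2 and the high Control liver 2, and its groups overlapped. Of the 7428 genes, 21 had an r with Ppargc1a over 0.9, whereas 243 had an r under -0.9 and ran against it. The mean over all genes was 6.04, 6.15 and 5.92 in DeltaHepKlf6 livers 1, 2 and 3. It was 6.18, 6.07 and 6.04 in Control livers 1, 2 and 3. The part of these array means in the r values was not tested. These r values only describe the 6 arrays, on which Ppargc1a was chosen and which form 2 clusters, so any gene whose groups differ can score high.

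Wider lists were read for the rest of the pathway, each described beside all genes, of which 5531 were higher and 9223 lower. Of PGC-1 partners and regulators, 28 of 32 were measured, 4 higher and 24 lower, with a median difference of -0.12. In this list 0 genes had an adjusted and 0 an unadjusted p under 0.05. Cebpb, a factor of the hepatic fasting and acute phase programmes, read 5.65, 5.71 and 5.44 in DeltaHepKlf6 livers 1, 2 and 3, against 5.88, 5.83 and 5.79 in Control livers 1, 2 and 3. Its groups lay apart, with a difference of -0.23 and a standard error of 0.13. Prkaa2, a catalytic subunit of the energy sensor AMPK, was the other gene whose groups lay apart, at -0.24 ± 0.16 (SE). Its difference ran from -0.345 without DeltaHepKlf6 liver 2 to -0.115 without DeltaHepKlf6 liver 3, and it was chosen after its values were seen. Of all genes, 3.9% lay apart on this lower side. Sirt3, the mitochondrial deacetylase, differed by -0.33 ± 0.21 (SE) and Pprc1, the third member of the PGC-1 family, by -0.35 ± 0.23 (SE), both with overlapping groups. Pprc1 differed by -0.16 without Control liver 1, and Sirt3 by -0.18 without DeltaHepKlf6 liver 3. Without DeltaHepKlf6 liver 2 the differences were larger, at -0.49 for Pprc1 and -0.51 for Sirt3. Ppara, a nuclear receptor that PGC-1 alpha coactivates and that published work on these mice names, read 9.61, 9.50 and 9.43 in DeltaHepKlf6 livers 1, 2 and 3, against 9.57, 9.73 and 9.63 in Control livers 1, 2 and 3, a difference of -0.13 ± 0.13 (SE) with overlapping groups.

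Of gluconeogenesis and fasting targets beside Pck1 and G6pc, 13 of 17 were measured, 3 higher, 9 lower and 1 equal, with a median difference of -0.08 and 0 genes with an adjusted or unadjusted p under 0.05. Cdkn1a, the cell cycle inhibitor p21 and a FOXO target, differed by -0.79 ± 0.46 (SE). Its difference ran from -1.13 without DeltaHepKlf6 liver 2 to -0.42 without Control liver 1. Slc37a4, the transporter that brings glucose-6-phosphate to the phosphatase, differed by -0.28 ± 0.24 (SE). Its difference ran from -0.50 without DeltaHepKlf6 liver 2 to -0.09 without DeltaHepKlf6 liver 3. Ppp1r3c, a glycogen-targeting phosphatase subunit, differed by -0.57 ± 0.46 (SE), and by -0.86 without DeltaHepKlf6 liver 1. It differed by -0.04 without DeltaHepKlf6 liver 3, where it read 7.38 against 8.74 or more in every other liver. Trib3, a pseudokinase that restrains insulin signalling, differed by 0.02 ± 0.15 (SE).

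Of the genes for mitochondrial DNA transcription and copying, 12 of 19 were measured, 6 higher and 6 lower, with a median difference of 0.002 and 0 genes with an adjusted or unadjusted p under 0.05. Lonp1, the protease that degrades TFAM, differed by -0.29 ± 0.25 (SE). Its difference ran from -0.47 without DeltaHepKlf6 liver 2 to -0.04 without DeltaHepKlf6 liver 3. Top1mt, the mitochondrial topoisomerase, differed by -0.19 ± 0.23 (SE). Its difference ran from -0.355 without DeltaHepKlf6 liver 2 to 0.04 without DeltaHepKlf6 liver 3. Polg, the mitochondrial DNA polymerase, differed by -0.13 ± 0.17 (SE). Its difference ran from -0.21 without DeltaHepKlf6 liver 2 to -0.007 without Control liver 1.

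Of known PGC-1 alpha and ERR alpha target genes, 13 of 19 were measured, 3 higher and 10 lower, with a median difference of -0.03. In this list 0 genes had an adjusted p under 0.05, and 1, Alas1, had an unadjusted p under 0.05, where 1.68% of all genes had. Alas1, the first enzyme of heme synthesis and a fasting target of PGC-1 alpha in liver, read 10.66, 10.84 and 10.73 in DeltaHepKlf6 livers 1, 2 and 3, against 10.48, 10.28 and 10.49 in Control livers 1, 2 and 3. All DeltaHepKlf6 values lay above all Control values, on the side where 2.42% of all genes stand apart, but within DeltaHepKlf6 the highest Alas1 was in liver 2, where Ppargc1a was lowest. The difference was 0.33 ± 0.13 (SE), between 0.26 and 0.37 with each liver left out in turn (limma, unadjusted p = 0.0499, adjusted p = 0.998). Acaa2, a thiolase of mitochondrial fat oxidation, differed by -0.27 ± 0.17 (SE), with overlapping groups. Fgf21, a fasting hormone of the liver, differed by -0.30 ± 0.20 (SE), also with overlapping groups. The Fgf21 difference ran from -0.41 without DeltaHepKlf6 liver 3 to -0.13 without DeltaHepKlf6 liver 1.

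**Figure D5:**
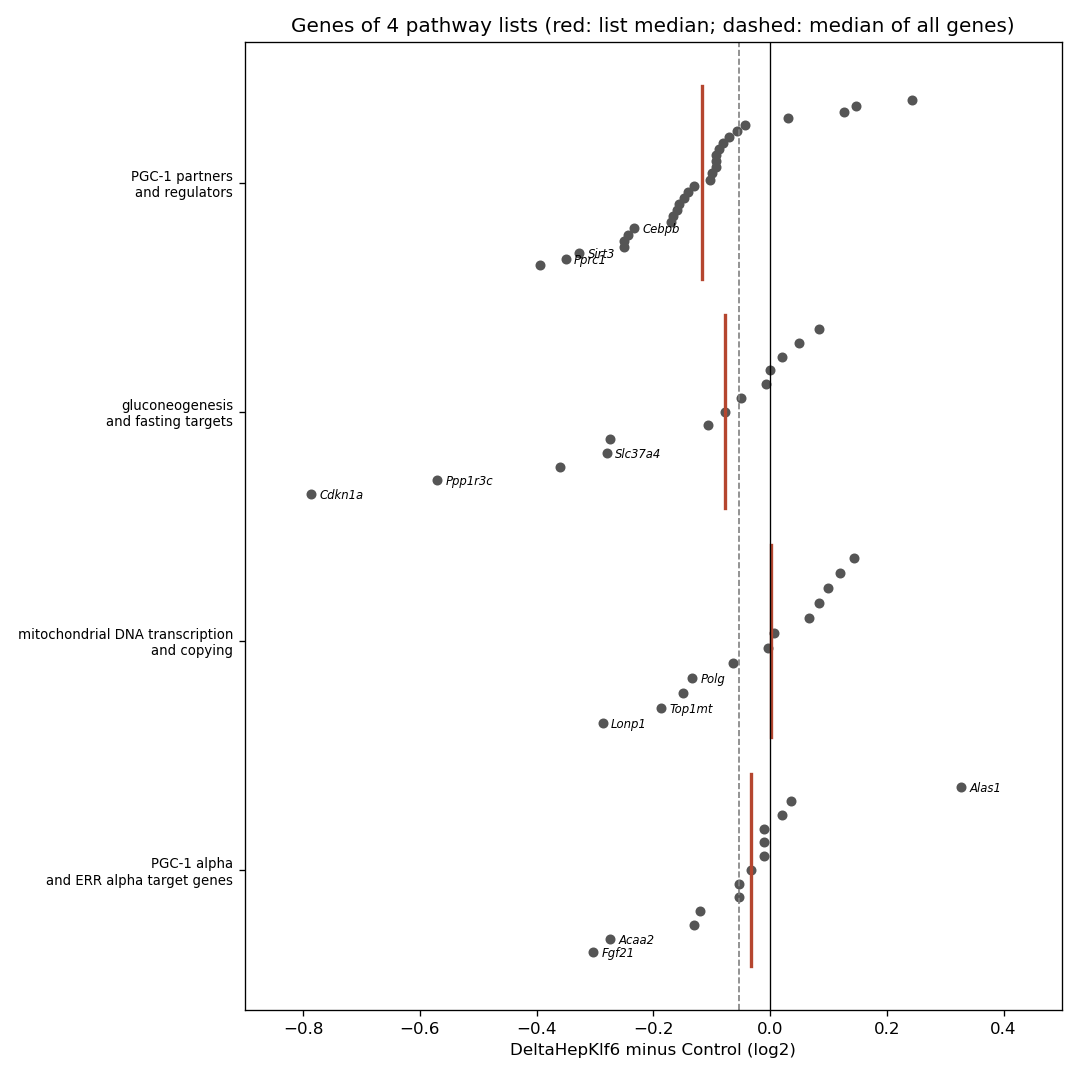
DeltaHepKlf6 minus Control difference (log2) of each measured gene in the 4 lists, with red bars for list medians and a dashed line for the median of all genes at -0.05. Names mark the 3 genes of smallest unadjusted p in each list, and Alas1 at 0.33 is the highest point of its list.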

How the data were processed

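Liver RNA of 3 DeltaHepKlf6 and 3 Control mice was measured on Affymetrix exon arrays. The authors deposited 1 table of log2 values for 23332 probe sets, and the submitters' processing notes name Affymetrix Expression Console, RMA and limma, without versions or order. The log2 scale of the deposited values was inferred from their range, 0.65 to 14.35. RMA compresses differences of dim probe sets. No background signals were used here, and precision is limited by the small number of arrays. The sources used here do not give the probe sets' genome build. The platform annotation gave 1 gene to 14996 probe sets, several to 1019 and none to 7317, and 14941 matched RefSeq by gene identifier. No 2 arrays were identical, and 0 sample columns were unused.

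All probe sets were fitted with lmFit and eBayes in limma 3.58.1 (R 4.3.3), without covariates, and adjusted by Benjamini-Hochberg over all of them, with a threshold of 0.05. The fit was tested on simulated data. Correlations and exact permutation tests used scipy 1.17.1 under Python 3.11.15. Promoter windows are RefSeq's, build GRCm38.p6. The members and lists were chosen with earlier results of these data known. Ppargc1a was left out of the count of members past a p, since it was picked on that contrast. Named beside the members are the 3 genes of smallest p in each list, Klf6, Ppara and Trib3, and the 5 genes most correlated with Ppargc1a. Prkaa2, Igfbp1 and Crtc2 were chosen after their values were seen. The correlations between members and the motif CGTCA were added after the data were seen. The labels name separate mice, so the mouse is the unit of the p-values. Limma's p-values rest on a variance between mice that is drawn toward that of the other probe sets. Other settings tried were an intensity trend, filters on dim probe sets, quantile normalization, equal medians, array weights, a replicate block, each array left out, and the mean of a gene's probe sets.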

Additional observations from a re-analysis of the deposited data

How the results depend on the processing

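Limma called 0 probe sets under all settings run, and 0 of the 8 members other than Ppargc1a passed an unadjusted p under 0.05 under any of them. The lowest unadjusted p was 0.179. At an unadjusted p under 0.05 the count over all probe sets was 750 as deposited and 1797 without DeltaHepKlf6 liver 2, and between 674 and 799 without any other single liver. It was 444 and 233 without the dimmest 25% and 50% of the 23332 probe sets, where fewer sets were tested, and Esrra is not among the brighter 50%. The Ppargc1a difference ran from 0.60 to 0.99 with single livers left out, which cannot turn its direction since the groups do not overlap. The groups did not overlap in 2 to 3 members with single livers left out, against 11.7% to 26.8% of all genes. The added member was Ppargc1b without Control liver 2, where 13.7% of all genes lay apart, and Pck1 without DeltaHepKlf6 liver 2, where 26.8% did. Pck1 had the order of Ppargc1a in 1 to 2 of the 4 pairs that remained. Small differences changed sign. With array weights Ppargc1b was -0.0027, Pck1 -0.014 and G6pc -0.0086. With quantile normalization Sirt1 was 0.036 and Foxo1 0.0056. With the interquartile range as a covariate, chosen after seeing the data, Sirt1 was 0.0097 and G6pc -0.024. With single livers left out Tfam ran from -0.13 to 0.19, Sirt1 from -0.185 to 0.043, Pck1 from -0.09 to 0.055 and G6pc from -0.20 to 0.26. The cause of these changes was not tested.

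The groups share replicate numbers, but nothing in the labels says that a number pairs mice. Deviations from the group means correlated with -0.13, -0.17 and 0.21 for mice of the same number 1, 2 and 3. For mice of different numbers the correlations ran from -0.28 to 0.34. With 3 mice per group these values cannot decide whether a number pairs mice. With the replicate number as a block, limma called 0 probe sets, 884 had an unadjusted p under 0.05, and the Ppargc1a difference was 0.74.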

Other observations

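Control liver 1, the liver with the lowest G6pc at 10.17, read highest of all 6 livers in several genes of the fasting and PGC-1 lists, which were picked out after their values were seen. This array also read highest in 33.2% of all 14860 genes, had the highest mean over them, at 6.18 against 5.92 to 6.15 in the other livers, and had the widest interquartile range, 3.29. The part of that in the values below was not tested. Igfbp1, a binding protein of insulin-like growth factor that insulin represses and FOXO1 induces, read 10.31, 9.73 and 9.97 in DeltaHepKlf6 livers 1, 2 and 3, against 11.22, 10.00 and 9.87 in Control livers 1, 2 and 3. Cdkn1a read 8.57, 9.23 and 7.83 in DeltaHepKlf6 livers 1, 2 and 3, against 10.06, 8.82 and 9.11 in Control livers 1, 2 and 3. Crtc2, a coactivator that carries the glucagon signal to gluconeogenic genes, read 7.03, 7.43 and 6.96 in DeltaHepKlf6 livers 1, 2 and 3, against 7.79, 6.94 and 7.17 in Control livers 1, 2 and 3. Foxo1 also was highest in Control liver 1, at 8.06. Pck1 in that liver was 12.24, inside the range of the other livers.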
